A study of Homo sapiens with 7 samples.

Results

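Inverted repeat pairs are the copies of one repeat that lie close together on opposite strands. They were taken here from the annotated copies (loci) of long terminal repeat (LTR) elements counted in HCT116, a human colon carcinoma line. A locus was an inverted locus if another locus with the same repeat name lay on the opposite strand at a gap of 0 to 2000 bp, and names starting with LTR12 were left out. The rule found 13548 inverted loci among 703140 loci, and they formed 8597 pairs. It used position, name and strand and no read count. The comparison loci were the 293804 whose only such neighbour was on the same strand, called same-strand loci below. A further 390407 loci had no such neighbour, and 5381 were LTR12 loci.

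When a transcript runs through 2 copies in opposite orientation, the second copy is the reverse complement of the first, and the RNA can fold back into a hairpin. Copies on the same strand cannot pair with each other in this way. Double-stranded RNA inside cells is read by sensors such as MDA5 and edited by ADAR1, and inverted Alu copies, which are not counted in these files, are the best known source in human cells. The J2 antibody binds double-stranded RNA above a minimum length whatever its sequence. Among the names met below, MSTA, THE1 and MLT1 are LTRs of the MaLR group, MLT2 names are LTRs of the ERVL group, and LTR10 and PABL_B are LTRs of ERV1 elements. Names ending in -int are internal regions, the part between the LTRs that once coded for proteins.

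RNA bound by J2 was sequenced from 7 libraries. The labels state that lysates were treated with RNase T1, which cuts single-stranded RNA, and with DNase, and that the recovered RNA was sheared. They give 5-Aza-CdR, an inhibitor of DNA methylation, at 0.3 µM, with new medium after 24 h and culture to day 5. The deposited counts came as 2 sets. Set 1 held 1 library each of 5-Aza-CdR, the Combination and PBS, and set 2 held 1 library each of Vc, 5-Aza-CdR, the Combination and PBS. The labels define neither Vc nor the Combination; in the published study they are vitamin C, and 5-Aza-CdR with vitamin C. All libraries are of the same line, and the labels do not say whether the sets came from separate cultures, so p-values measure only the spread between these libraries. The files used here count repeats and no genes, so the line was not checked against marker genes.

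The locus sheets held 39027 reads for 5-Aza-CdR, 50713 for the Combination and 133154 for PBS in set 1. In set 2 they held 18495 reads for Vc, 23528 for 5-Aza-CdR, 32403 for the Combination and 19453 for PBS. A single locus outside the inverted class, HERVE_a-int at chr6:4428317-4428782 (hg19), took 22762, 31334 and 106889 reads of the 5-Aza-CdR, Combination and PBS libraries of set 1 and 5 to 8 reads of each library of set 2. At the inverted loci themselves PBS of set 1 also stood apart, with 1363 of the 3723 inverted reads. The main means over libraries are given with and without it. Shares and rankings pooled over the 7 libraries include it and were not repeated without it.

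The inverted loci were spread over 385 of the 500 repeat names. MSTA had most of them (670), followed by MLT1A0 (637), MLT1D (588), MLT1K (584), MLT1C (572) and THE1B (524). Internal regions made up 2338 inverted loci. Most inverted loci (10818) had 1 inverted partner, 2730 had more, with up to 18, and 5595 had a same-strand neighbour as well. The median inverted locus was 241 bp long, against 208 bp for same-strand loci and 375 bp for loci with no such neighbour. The gap of inverted pairs had a median of 760 bp and quartiles of 274 and 1322 bp, wider than the 322 bp median of the 233050 same-strand pairs, and the shorter locus of the pair had a median of 132 bp, against 118 bp in same-strand pairs. Both arrangements were about equally common: 4306 pairs faced each other (plus strand, then minus strand) and 4291 diverged (minus, then plus), and in 241 pairs the 2 loci abutted with no gap. At the limit of the rule, the widest pair inside was a MER4-int pair on chromosome 4 at 2000 bp and the nearest outside was an MLT1A1 pair on chromosome 2 at 2001 bp; neither had a read in any library.

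Reads were few. Of the 13548 inverted loci, 12440 had 0 reads in all 7 libraries, and 1108 (8.18%) had at least 1 read in some library. Of those 1108 loci, 799 were read in 1 library only, and 1 was read in all 7. Only 69 inverted loci reached 10 reads over the 7 libraries, and 9 reached 30. Between the 2 sets, 34 inverted loci were read in both 5-Aza-CdR libraries (18.9% of the 180 read in set 1 and 13.0% of the 261 read in set 2). For the Combination 38 were shared (17.6% of 216 and 12.1% of 315), and for PBS 38 (13.1% of 289 and 19.1% of 199). A read at most of these loci therefore did not recur in the other library of the same treatment. The same held for same-strand loci, of which 16.9% (set 1) and 8.96% (set 2) were shared with 5-Aza-CdR. For the Combination these shares were 17.4% and 9.63%, and for PBS 20.3% and 11.2%. Loci read in 1 library only made up 72.1% of the read inverted loci and 75.3% of the read same-strand loci.

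A larger share of inverted than of same-strand loci had reads in every library. In set 1 the shares were 1.33% of inverted and 0.785% of same-strand loci with 5-Aza-CdR, 1.59% and 0.947% with the Combination, and 2.13% and 0.798% with PBS. In set 2 they were 1.49% of inverted and 1.31% of same-strand loci with Vc, 1.93% and 1.48% with 5-Aza-CdR, 2.33% and 1.71% with the Combination, and 1.47% and 1.45% with PBS. The gap between the classes was widest in PBS of set 1, at 1.34 percentage points, and nearly closed in PBS of set 2, at 0.0162 points. Over the 7 libraries the difference averaged 0.541 ± 0.421 percentage points (SD, n = 7; positive in 7 of 7; exact sign-flip permutation test over libraries, two-sided, p = 0.0156, the smallest this design allows). The same loci are read in every library, so this test covers the spread between libraries and not that between loci. Without the PBS library of set 1 the mean was 0.409 points. With same-strand loci weighted to the repeat names and lengths of the inverted loci, which could be done for 13536 of the 13548, it was 0.597 points (exact p = 0.0156), an alternative chosen after seeing the data. Leaving out the inverted loci that also had a same-strand neighbour gave 0.456 points (positive in 5 of 7 libraries, exact p = 0.0625). Loci with no such neighbour, which were longer, were read in 1.06% with 5-Aza-CdR, 1.26% with the Combination and 0.846% with PBS in set 1. In set 2 they had 1.51% with Vc, 1.56% with 5-Aza-CdR, 1.85% with the Combination and 1.55% with PBS. They thus lay above inverted loci with Vc and PBS of set 2 and below them in the other libraries.

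Counted as reads per length, inverted loci were also above same-strand loci. The log2 ratio of reads per kb, inverted over same-strand, was 0.57 with 5-Aza-CdR, 0.60 with the Combination and 1.79 with PBS in set 1, and 0.36 with Vc, 0.37 with 5-Aza-CdR, 0.44 with the Combination and 0.20 with PBS in set 2. PBS gave both the highest and the lowest of the 7 values. The mean was 0.62 ± 0.53 (SD, n = 7; positive in 7 of 7; exact sign-flip permutation test, two-sided, p = 0.0156), and 0.42 without the PBS library of set 1. The plot of detection by library shows both measures.

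**Figure D1:**
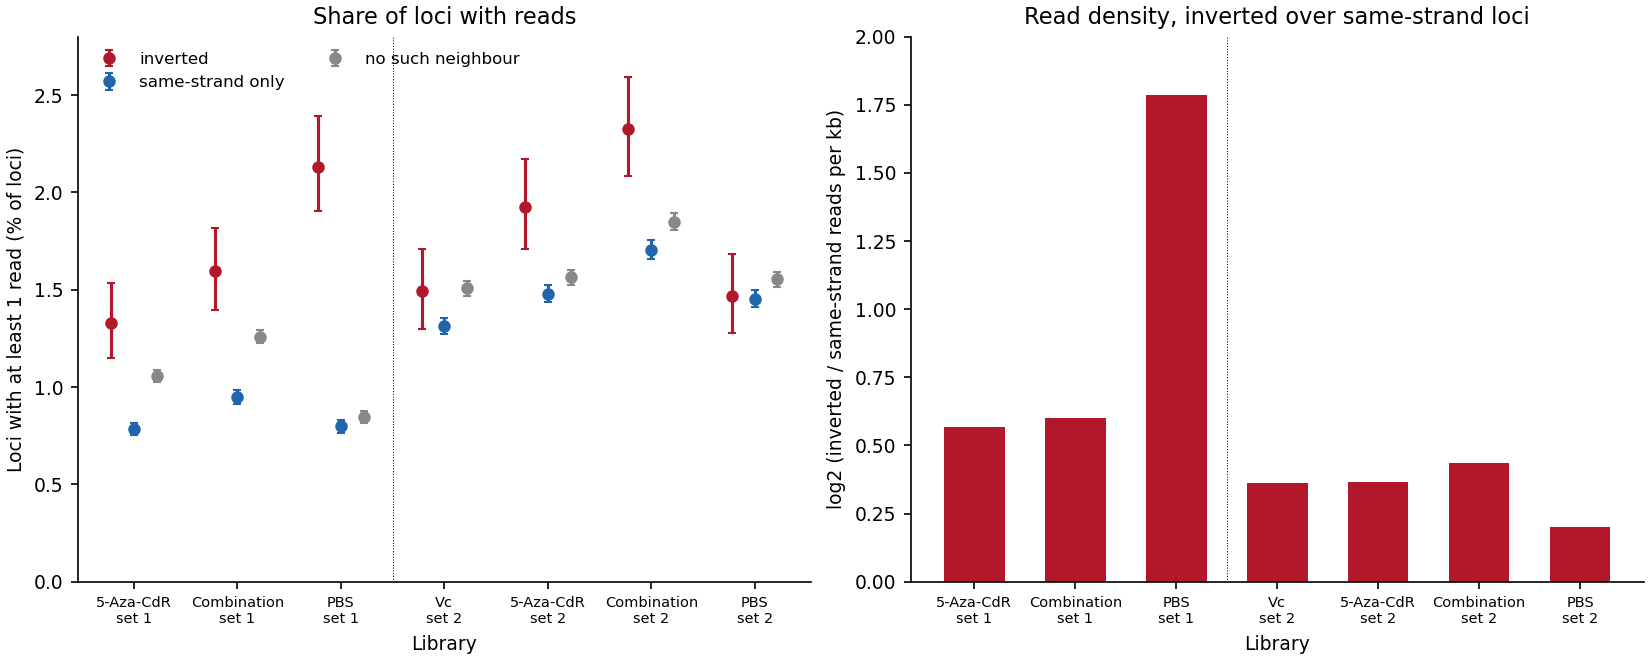
Left, percentage of loci with at least 1 read in each library for inverted loci (red), same-strand loci (blue) and loci with no such neighbour (grey), with Wilson 95% intervals that cover counting error only. Right, log2 ratio of reads per kb, inverted over same-strand loci; all 7 bars lie above 0, and PBS of set 1, at 1.79, is the tallest.

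The PBS library of set 1 held 1363 inverted reads at 289 loci, a mean of 4.72 reads per locus read. The other libraries held 239 reads with 5-Aza-CdR and 286 with the Combination in set 1, and 406 with Vc, 440 with 5-Aza-CdR, 581 with the Combination and 408 with PBS in set 2, with means of 1.32 to 2.05 reads per locus read. In PBS of set 1, 29 inverted loci had 10 or more reads and 9 of these had 0 reads in every other library, whereas no inverted locus reached 10 reads with 5-Aza-CdR or the Combination in set 1. A single read was the count at 26.3% of the read inverted loci of that PBS library, against 72.4% to 80.6% in the other 6. Whether duplicate reads were treated alike in both sets is not given in the sources used here, and its part in this difference was not tested.

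At the level of pairs, 1280 of the 8597 inverted pairs (14.9%) had a read at one or both loci in any library, against 11.9% of same-strand pairs. Within libraries the inverted percentage was higher in 5 of 7, and it was lower with Vc (2.91% of inverted and 3.11% of same-strand pairs) and with PBS (2.94% and 3.39%) in set 2. The percentage also varied with length. Inverted pairs whose shorter locus was 11 to 100 bp long were read in 10.8% of cases and those over 300 bp in 21.3%, and same-strand pairs in 8.55% and 22.2%. At over 300 bp the intervals of the 2 classes overlapped. With both loci over 200 bp, 20.0% of 2706 inverted and 19.5% of 61196 same-strand pairs were read. Those pairs differed by set: in PBS of set 1 5.91% of inverted and 3.32% of same-strand pairs had reads, and in PBS of set 2 3.92% and 6.22%. With 5-Aza-CdR the percentages were 3.92% and 2.92% in set 1 and 5.51% and 7.16% in set 2. Among long pairs the inverted percentage was above the same-strand one in each of the 3 libraries of set 1 and below it in each of the 4 of set 2, a split that was not tested.

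The long pairs also differed by arrangement and gap, which is given as a description. Facing pairs with both loci over 200 bp were read in 28.7% of 167 cases at gaps of 0 to 100 bp, in 24.4% of 213 at wider gaps up to 500 bp and in 20.0% of 973 beyond that. Diverging pairs had 16.6% of 151, 18.6% of 290 and 18.4% of 912 in the same bins, and same-strand pairs had 20.2%, 18.5% and 20.0%. The Wilson 95% interval of the closest facing pairs (22.4% to 36.0%) lay above the value of same-strand pairs and overlapped narrowly with that of the closest diverging pairs (11.5% to 23.3%). Pairs share names, neighbours and, in some cases, sequence, so these intervals, which treat pairs as independent, are too narrow.

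**Figure D2:**
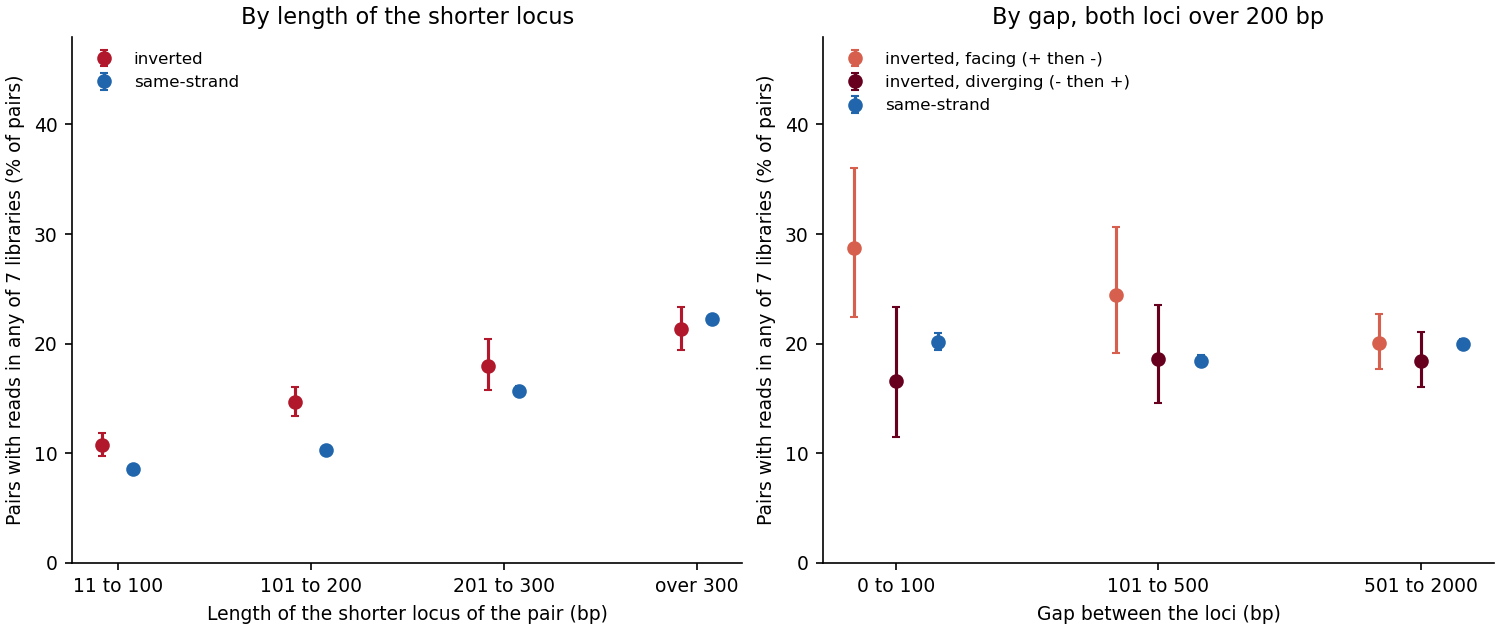
Percentage of pairs with at least 1 read at either locus in any of the 7 libraries, with Wilson 95% intervals that cover counting error only. Left, inverted (red) and same-strand (blue) pairs by the length of the shorter locus; right, facing, diverging and same-strand pairs with both loci over 200 bp, by gap, where facing pairs at 0 to 100 bp were read in 28.7% of cases.

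A hairpin holds both arms, and the share of read pairs with reads at both loci was compared. In set 1 it was 6.32% of inverted and 3.02% of same-strand pairs with 5-Aza-CdR, 5.42% and 3.11% with the Combination, and 12.4% and 5.15% with PBS. In set 2 it was 8.40% and 7.48% with Vc, 7.85% and 8.65% with 5-Aza-CdR, 12.2% and 9.50% with the Combination, and 9.09% and 8.33% with PBS. The inverted share was higher in 6 libraries and lower with 5-Aza-CdR in set 2. The mean difference was 2.35 ± 2.56 percentage points (SD, n = 7; exact sign-flip permutation test, two-sided, p = 0.0469). The call was lost in 9 of the 14 alternatives run, among them leaving out PBS of set 1 (1.54 points, exact p = 0.0938) and keeping only gaps of at least 200 bp (1.86 points, exact p = 0.219), a choice made after seeing the data because 1 sheared fragment can span 2 loci at a short gap. With gaps up to 500 bp only it was 5.67 points (exact p = 0.0156), and among loci of 200 to 600 bp 8.38 points (exact p = 0.0156).

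Relative to same-strand reads, neither 5-Aza-CdR nor the Combination moved inverted reads against PBS in a direction that both sets shared. The log2 ratio of inverted to same-strand reads was -3.88 with 5-Aza-CdR and -2.66 with PBS in set 1, and -4.08 and -4.25 in set 2. It therefore differed by -1.22 in set 1 and by 0.16 in set 2 (mean -0.53; exact permutation test, two-sided, p = 1, with 0.333 the smallest p that 2 against 2 libraries allow). For the Combination the ratio was -3.85 in set 1 and -4.01 in set 2, which differed from PBS by -1.19 and 0.23 (mean -0.48, exact p = 1). With PBS of set 1 left out, both means turned positive, at 0.27 (5-Aza-CdR) and 0.32 (Combination). The 2 comparisons share their PBS libraries. The Combination and 5-Aza-CdR differed by 0.03 in set 1 and 0.07 in set 2 (mean 0.05, exact p = 0.667), and Vc had a ratio of -4.09, between 5-Aza-CdR and PBS of its set. In set 1, where the authors also deposited tRNA-scaled ratios, inverted reads came to 6.26 per 1000 tRNA reads with 5-Aza-CdR, 17.9 with the Combination and 5.86 with PBS, while same-strand reads came to 92.0, 258 and 37.0. In a pull-down from bulk cells, fewer cells with a transcript and less RNA per cell cannot be told apart.

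The reads were concentrated in few names. The 10 repeat names with most inverted reads held 50.1% of the 3723 inverted reads, and 188 names had any. MSTA led with 394 reads at 61 of its 670 inverted loci, and 42.1% of them came from 1 locus. LTR10C had 228 reads at 4 of 7 loci (69.7% from 1 locus) and PABL_B 137 at 3 of 3 loci (81.8% from 1 locus). MLT2B4 (216), MLT1C (207), MLT1A0 (180), THE1B (145), MLT2A1 (143) and MLT1B (110) were spread over 21 to 67 read loci each, and THE1B-int had 107 reads at 12 loci. In each of these 10 names, which were ranked by their inverted reads, a larger share of inverted than of same-strand loci had been read, for example 26.7% of inverted and 6.36% of same-strand MLT2B4 loci and 9.10% and 5.51% of MSTA loci. That ranking favours names with many read inverted loci. Over all 385 names with loci of both classes, the inverted share was higher in 149, lower in 228 and equal in 8, and 197 of the 385 had no inverted locus with a read.

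For a test by name, reads were summed per repeat name and class, and 510 sums with at least 30 reads entered 1 edgeR quasi-likelihood fit with a term for the set; 28 of them were inverted sums. None of the 28 passed an adjusted p of 0.05 (Benjamini-Hochberg over all 510) in 5-Aza-CdR against PBS, where 1.18% of all sums did. Unadjusted, 6 had p under 0.05, all lower with 5-Aza-CdR (MSTA, MSTB, THE1B, THE1B-int, MLT1A0 and PABL_B), where 51 of all 510 sums had one in either direction, and DESeq2 called 0. Of these, MSTB and PABL_B reached 30 reads only through PBS of set 1. The filter thus favoured lower values for them, and their direction is not read. MLT1A0 had 10 and 7 reads with 5-Aza-CdR and 138 and 6 with PBS in sets 1 and 2. In the Combination against PBS 0 of 28 were called, against 2.16% of all sums, and DESeq2 called 0. Unadjusted, 3 of the 28 had p under 0.05 by edgeR, as did 55 of all 510 sums. In the Combination against 5-Aza-CdR 0 of 28 were called, against 0% (0 unadjusted, 0 by DESeq2). The median log2 change of the 28 inverted sums was -0.62 with 5-Aza-CdR and -0.60 with the Combination, and -0.03 over all sums other than LTR12 in both comparisons. Without the reads of the PBS library of set 1, 16 of the 28 would have had 30 reads, and a sum that passed through that library had to be lower elsewhere in its set, so these medians are a description and nothing is read from them. PABL_B had 3 and 1 reads with 5-Aza-CdR and 122 and 3 with PBS in sets 1 and 2 (log2 change -3.58, SE 0.85, adjusted p = 0.0834 from edgeR), so its difference rested on the PBS library of set 1. MSTA had 11 and 37 reads with 5-Aza-CdR and 142 and 61 with PBS (-1.52, SE 0.47, adjusted p = 0.219 from edgeR). A single MSTA pair on chromosome 8 held 0 and 20 of these reads with 5-Aza-CdR and 65 and 56 with PBS. Outside that pair, MSTA reads were lower with 5-Aza-CdR in set 1 and higher in set 2. The MSTA same-strand sum had a log2 change of -0.21 (SE 0.31). MSTB, another MaLR LTR, was called in neither class: its inverted sum had a log2 change of -1.94 (SE 0.87, adjusted p = 0.473 from edgeR) and its same-strand sum one of -1.06 (SE 0.40, adjusted p = 0.333 from edgeR). The inverted MSTB sum had 45 reads in PBS of set 1 and 2 to 5 in each other library. It entered the fit through that PBS library, so the direction of its change is not read. MLT2A1 ran the other way in set 2, with 3 and 35 reads with 5-Aza-CdR, 1 and 51 with the Combination and 10 and 22 with PBS in sets 1 and 2, and its log2 change of 0.21 (SE 0.69) with 5-Aza-CdR had an adjusted p of 0.934 in the edgeR fit.

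The pair with most reads in its fewer-read locus was an MSTA pair on chromosome 8 (hg19). Its plus-strand locus, chr8:23045752-23046157, and its minus-strand locus, chr8:23046249-23046670, face each other across 91 bp. MSTA is an LTR of the MaLR group. The left locus had 0 reads with 5-Aza-CdR, 4 with the Combination and 26 with PBS in set 1, and 15 with Vc, 6 with 5-Aza-CdR, 15 with the Combination and 16 with PBS in set 2. The right locus had 0, 8 and 39 reads in the same libraries of set 1 and 32, 14, 33 and 40 in those of set 2. Both loci were read in 6 of 7 libraries, always more on the right, and 5-Aza-CdR was the lowest library of each set at both. Scaled by the library sizes of the sums fit, the pair was at least 10.2-fold lower with 5-Aza-CdR than with PBS in set 1 (against a floor of 3 counts per library) and had a ratio of 0.388 in set 2 (exact conditional binomial 95% interval 0.221 to 0.657, counting error only). The Combination over PBS came to 0.336 (0.165 to 0.627) in set 1 and 0.718 (0.478 to 1.07) in set 2. The values of set 1 depend on the scaling. Its tRNA reads were 38200 with 5-Aza-CdR, 15946 with the Combination and 232558 with PBS. Scaled to these, the pair would be higher with the Combination than with PBS in set 1. With 5-Aza-CdR it would still be lower than with PBS, by a smaller fold. The pair is set in other repeats: a plus-strand MSTC piece with 1 read fills the 91 bp gap, further MSTC pieces on that strand adjoin the left locus (1 read) and the right locus (25 reads), and minus-strand MER101-int pieces lie on either side with 66 reads upstream and 122 downstream. The 122 reads fell as 1 with 5-Aza-CdR, 1 with the Combination and 52 with PBS in set 1 and as 24 with Vc, 12 with 5-Aza-CdR, 12 with the Combination and 20 with PBS in set 2. Low counts with 5-Aza-CdR in set 1 were thus not limited to the 2 inverted arms.

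The pair next in reads, of LTR10C on chromosome 19, has no gap and diverges, with the minus-strand locus chr19:15948159-15948742 abutting the plus-strand locus chr19:15948743-15949265. LTR10 elements are ERV1 LTRs known for binding sites of p53. The left locus had 2 reads with 5-Aza-CdR, 0 with the Combination and 41 with PBS in set 1, and 28 with Vc, 34 with 5-Aza-CdR, 35 with the Combination and 19 with PBS in set 2. The right locus had 0, 0 and 2 reads in the same libraries of set 1 and 12, 17, 16 and 12 in set 2. Scaled by the library sizes of the sums fit, the sets ran in opposite directions. The ratio of 5-Aza-CdR over PBS for the pair was 0.0989 (exact interval 0.0116 to 0.380) in set 1 and 1.79 (1.12 to 2.89) in set 2. The Combination was at least 7.89-fold lower than PBS in set 1 and had a ratio of 1.38 (0.865 to 2.23) in set 2. The bound for the Combination depends on the scaling. Scaled to the tRNA reads of set 1 (15946 with the Combination, 232558 with PBS), the floor of 3 counts shows no decrease.

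The PABL_B pair on chromosome 2 diverges across 663 bp, with chr2:75893921-75894420 on the minus strand and chr2:75895084-75895461 on the plus strand. The right locus had 3 reads with 5-Aza-CdR, 4 with the Combination and 103 with PBS in set 1, and 0 with Vc, 0 with 5-Aza-CdR, 1 with the Combination and 1 with PBS in set 2. The left locus had 15 reads in PBS of set 1 and 0 to 2 in each other library. Almost all reads of this pair were therefore those of 1 library. The maps of these 3 pairs show their loci and the repeats around them.

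**Figure D3:**
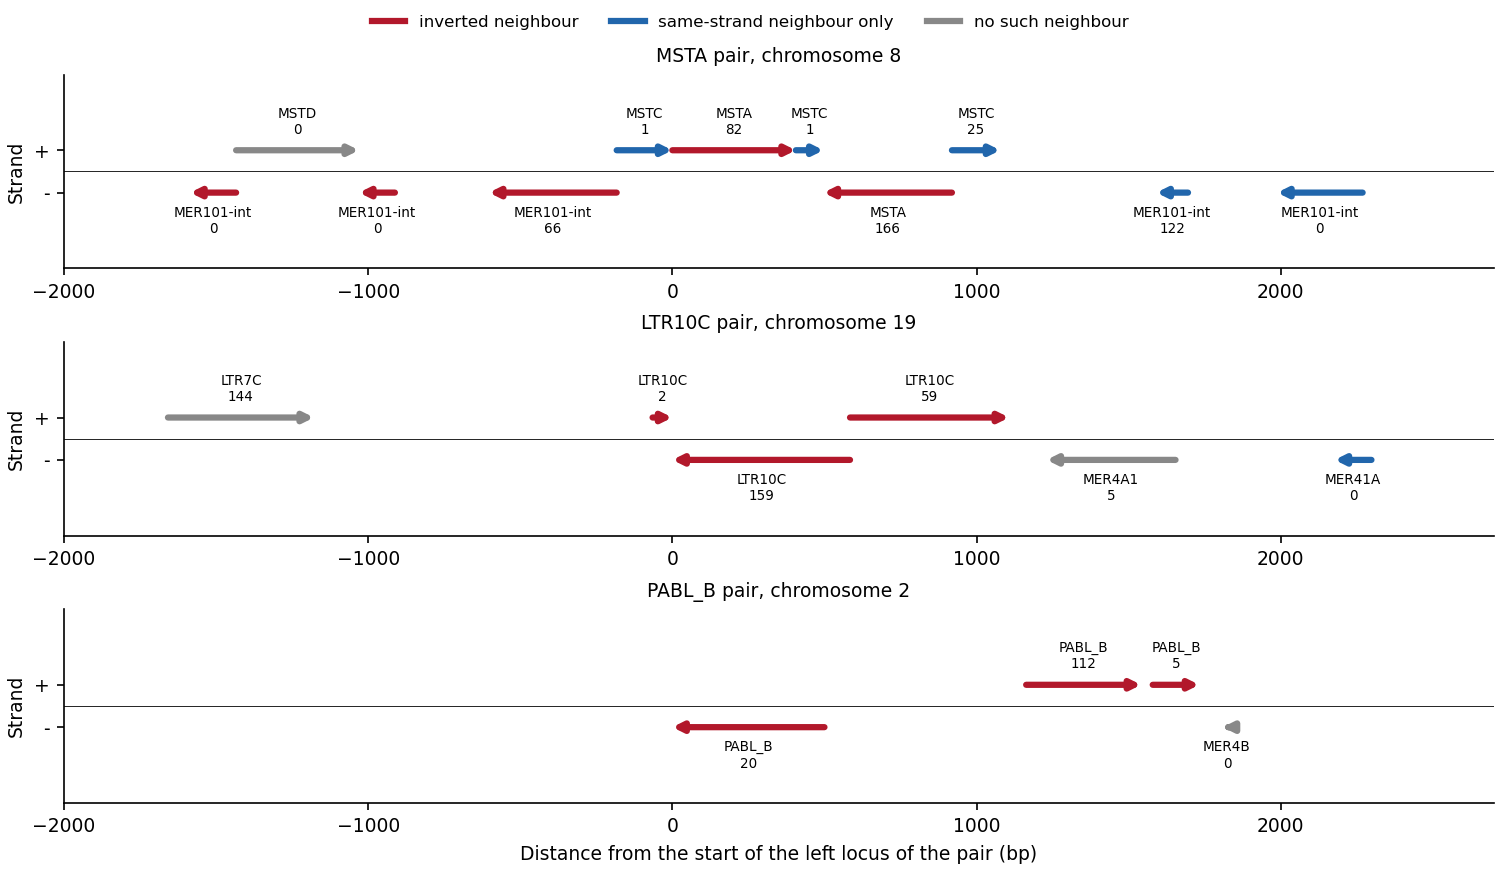
Repeat loci around the 3 pairs with most reads in the fewer-read locus, drawn by distance in bp from the start of the left locus; arrows point along the strand, and the number under each name is its reads over 7 libraries. The 2 red MSTA arrows face each other (82 and 166 reads), while the LTR10C (159 and 59) and PABL_B (20 and 112) arrows point away from each other.

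Lower in the ranking, 9 further pairs held 19 to 61 reads each. An MLT2B4 pair on chromosome 2, diverging across 273 bp with loci of 33 and 44 bp (chr2:187292548-187292580 and chr2:187292854-187292897), had 41 of its 61 reads in PBS of set 1 and reads at both loci in that library only. A pair of LTR10A, related to LTR10C, also diverges with no gap (chr9:38170775-38171322 and chr9:38171323-38171784). It had 2 reads with 5-Aza-CdR, 1 with the Combination and 12 with PBS in set 1, and 5 with Vc, 4 with 5-Aza-CdR, 10 with the Combination and 2 with PBS in set 2. By these unscaled reads PBS was again highest in set 1 and lowest in set 2. An LTR8 pair on chromosome 1, diverging across 1711 bp, was the only one of the 12 with 0 reads in PBS of set 1. A THE1D-int pair on chromosome X, facing across 1320 bp with loci of 1533 and 1616 bp, had 16 of its 19 reads in that library, 8 at each locus. The share of a pair's reads in its fewer-read locus ran from 15.2% for PABL_B to 50.0% for an MLT2A1 pair.

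**Figure D4:**
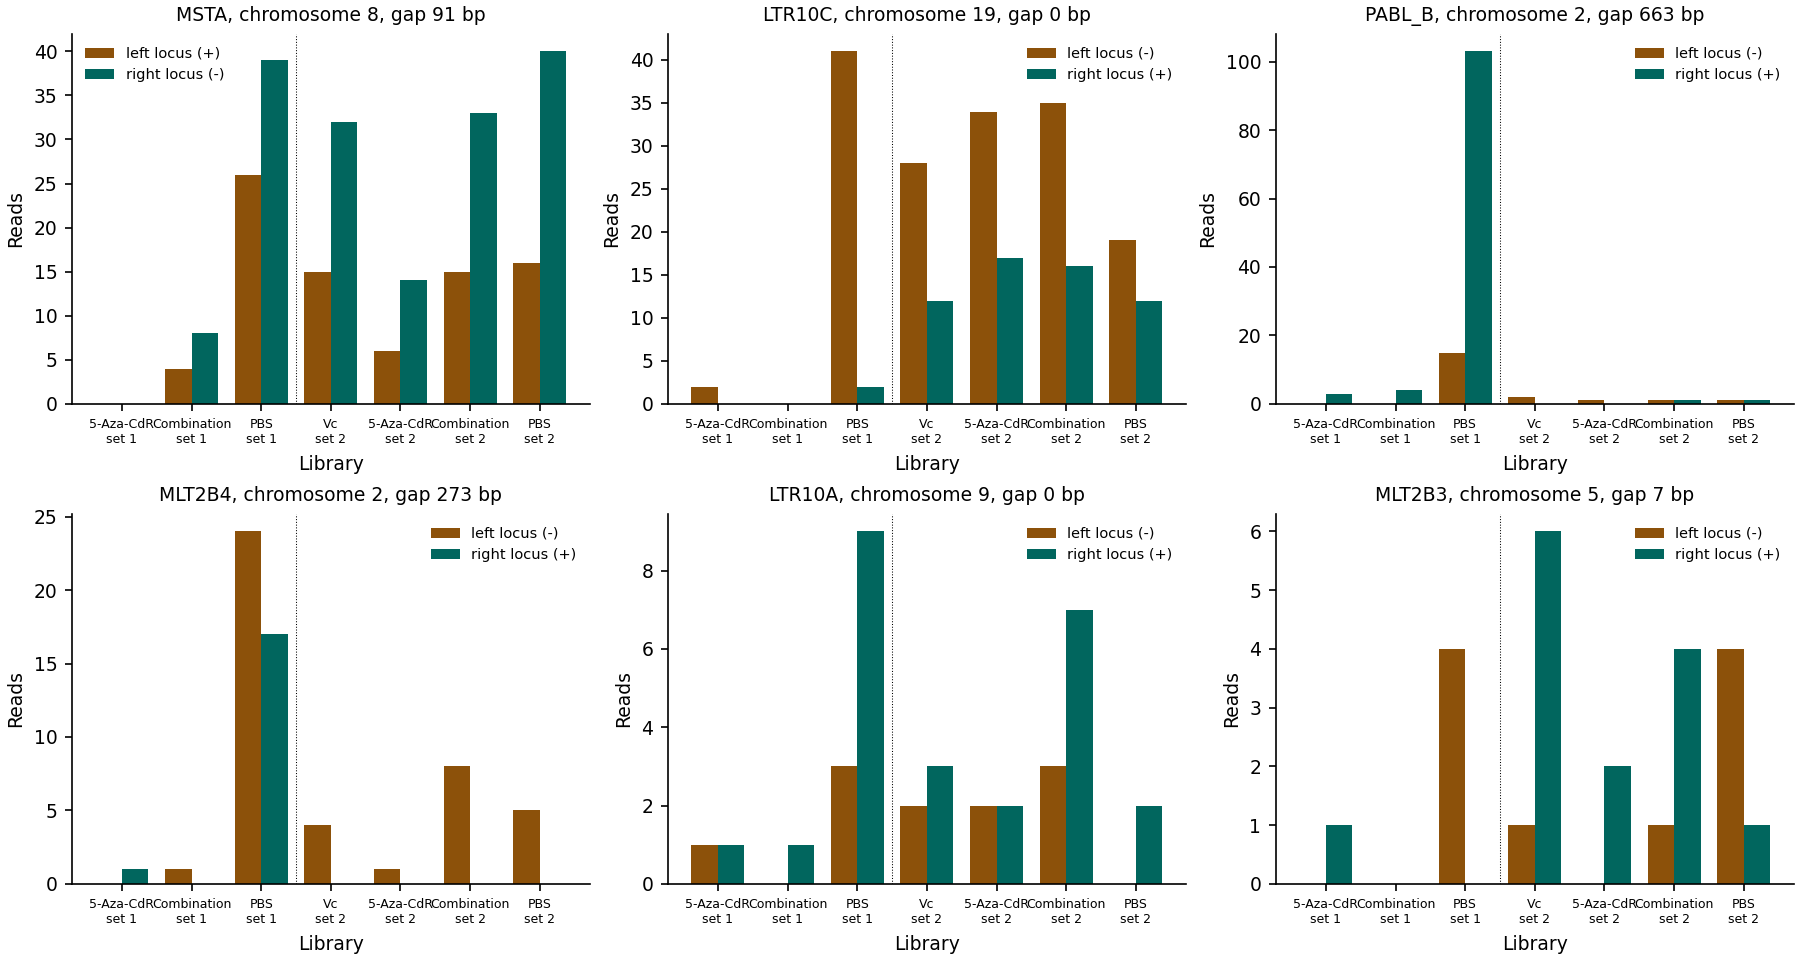
Reads at the left (brown) and right (green) locus of 6 inverted pairs in each library; the dotted line parts set 1 from set 2, and each panel has its own scale. MSTA on chromosome 8 has reads at both loci in 6 of 7 libraries, whereas PABL_B and MLT2B4 are read mainly in PBS of set 1.

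MLT2A1, an LTR of the ERVL group, gave a pair that recurs. In 5 MLT2A1 pairs on 2 chromosomes the loci face each other across 100 to 104 bp with nearly the same lengths, for example chr9:70389140-70389504 and chr9:70389609-70389991, and chr22:17379652-17380016 and chr22:17380117-17380500. All 10 loci had reads, 87 in total: 1 with 5-Aza-CdR, 0 with the Combination and 9 with PBS in set 1, and 16 with Vc, 17 with 5-Aza-CdR, 29 with the Combination and 15 with PBS in set 2. An MLT1C group had the same form, with 5 facing pairs on 2 chromosomes at a gap of 24 bp and 50 reads, of which 1 fell in set 1. In all, 199 inverted pairs in 89 groups matched another pair in name, arrangement, gap and lengths to within 5 bp, and they held 346 loci. Only matches with both loci of about 100 bp or more were counted, so shorter look-alike pairs are not covered. Reads of near-identical copies could be placed at any of them, and the sources used here do not state how such reads were counted, so the values of single copies are uncertain. Without these loci the mean excess of inverted loci with reads was 0.459 percentage points (exact sign-flip permutation test over 7 libraries, p = 0.0469), a comparison added after seeing the data.

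Single loci were tested in 1 edgeR quasi-likelihood fit of the 409 loci with at least 30 reads over the 7 libraries, with a term for the set, and 9 of them were inverted. With 5-Aza-CdR against PBS 3 of the 9 were called lower, where 6.6% of all 409 loci were called lower, and none was called higher, where 30.1% of all loci were called in either direction. The 30.1% includes 109 LTR12 loci, of which 71 were called higher and 0 lower. Over the 300 other loci 17.3% were called, 25 loci higher and 27 lower, and of the 105 same-strand loci 4.76% were called higher and 4.76% lower. Only 5 of the 9 inverted loci had 30 reads outside the PBS libraries, and a locus that passed through PBS had to be lower elsewhere, so the count of 3 is a description and is not read against these percentages. The 3 loci were THE1B-int at chr4:39534194-39534821 (log2 change -4.13, SE 1.56, adjusted p = 0.0351), PABL_B at chr2:75895084-75895461 (-3.35, SE 1.29, adjusted p = 0.0386) and the right MSTA locus on chromosome 8 (-2.48, SE 1.02, adjusted p = 0.0499), all by edgeR with Benjamini-Hochberg adjustment over 409 loci. THE1B-int is the internal region of a MaLR element. Its called locus had 0 and 1 reads with 5-Aza-CdR and 17 and 14 with PBS in sets 1 and 2. It had 1 and 4 with the Combination and 18 with Vc. This THE1B-int locus and PABL_B fell short of 30 reads outside the PBS libraries, and the right MSTA locus did not. The filter thus favoured lower values with 5-Aza-CdR at THE1B-int and PABL_B, and nothing is read from the direction of these 2 calls. The inverted partner of the THE1B-int locus, 1020 bp away, had 1 read in all, so this was no pair with 2 read arms.

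The 3 calls were not stable. DESeq2, a minimum of 10 reads and the fit without the term for the set each called none of them, and scaling by total reads called 1. Fits with a single library left out leave 1 library in a treatment, so their counts are not read. With PBS of set 1 left out, PABL_B had a log2 change of -1.13. The log2 change of the THE1B-int locus was -4.46 with DESeq2, -4.55 with a minimum of 10 reads and -4.38 without the set term. It ran from -6.99 to -3.66 over the 6 fits with 1 library left out. That of the right MSTA locus was -2.95, -2.99 and -2.50, and ran from -8.15 to -1.53. Both loci were picked by their calls, so these folds are a description. With PBS of set 2 left out, PBS of set 1 was the only PBS library, so the number of loci called in that fit is not read. In the Combination against PBS 0 of the 9 loci were called (0 by DESeq2). Of all loci 33.5% were called, of those other than LTR12 16.7% and of same-strand loci 16.2%. Unadjusted, 2 of the 9 had p under 0.05 by edgeR, as did 167 of all 409 loci. In the Combination against 5-Aza-CdR 0 were called, against 0% (0 unadjusted, 0 by DESeq2). The left LTR10C locus had log2 changes of -1.22 (SE 1.05) with 5-Aza-CdR and -2.02 (SE 1.09) with the Combination, and the right one 0.15 (SE 1.32) and -0.46 (SE 1.28), none called.

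**Figure D5:**
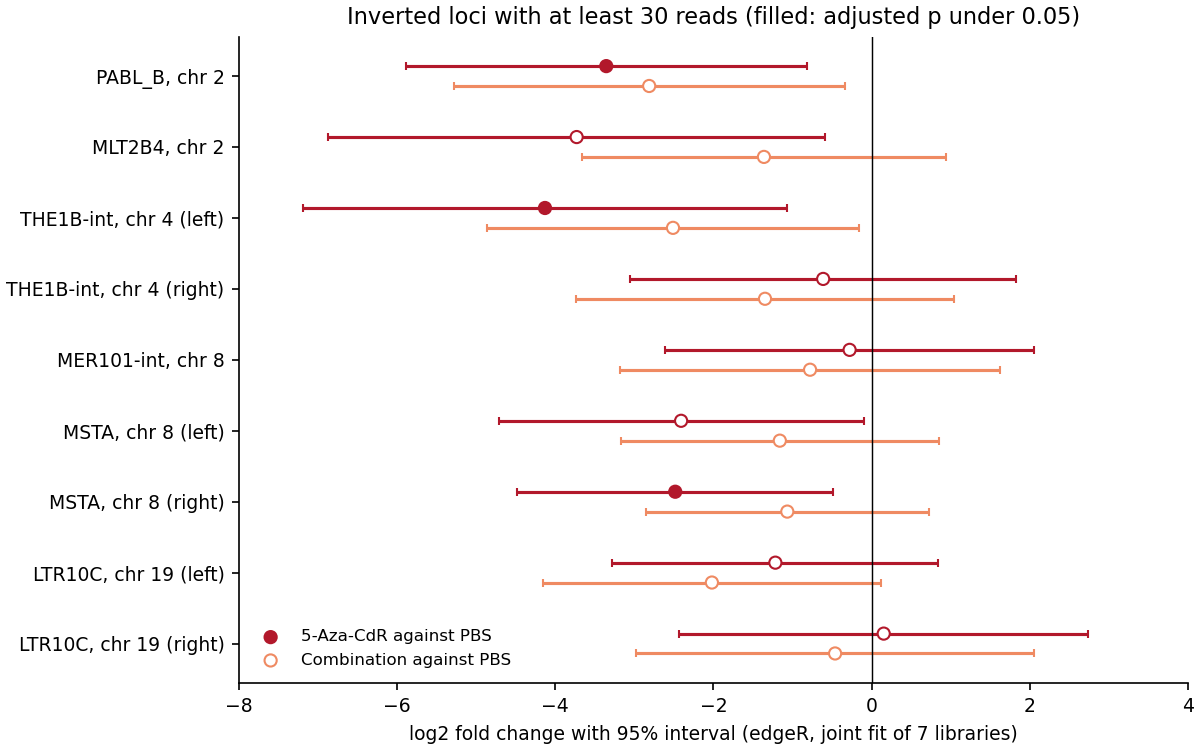
log2 fold change with its 95% interval for the 9 inverted loci with at least 30 reads, 5-Aza-CdR against PBS (dark red) and the Combination against PBS (orange), both against the same PBS libraries; filled points passed an adjusted p of 0.05 by edgeR. The 3 filled points are 5-Aza-CdR at PABL_B, the left THE1B-int locus and the right MSTA locus, and most intervals span more than 4 log2 units.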

How the data were processed

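The authors deposited 2 workbooks of raw counts of reads per annotated repeat copy and per family. Per the file headers and labels, set 1 is the table of 3 libraries and set 2 the table of 4 whose name states that duplicates were marked. The build is hg19. Bowtie2 and Picard are listed for set 2 in the submitters' processing notes. The counting tool, its use of strand and how multiply mapped reads were handled are not given in the sources used here. A sheet of set 1 holds, per the file headers, a ratio deposited by the authors, each family's count over the tRNA reads of its library. Coordinates are 1-based.

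Loci were matched between the sets by name, position and strand: all 703140 loci of set 2 were in set 1, whose sheets list 8975 more. Gaps were taken from the coordinates. The members and the comparisons were chosen with earlier results of these data known. Named items were the 12 inverted pairs with most reads in the fewer-read locus, the inverted loci with adjusted p under 0.05, the 10 loci and 10 names with most inverted reads, and the pairs on either side of the 2000 bp limit.

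Shares were tested over libraries with exact permutation tests. Counts were fitted with edgeR 4.0.16 (quasi-likelihood, trimmed mean of M-values, treatment plus set, at least 30 reads over 7 libraries) in R 4.3.3, with DESeq2 1.42.0 as an alternative; both the fits and the neighbour search were tested on simulated data. The locus fit estimated 1 trend of spread shared by all 409 loci. Its p-values, standard errors and intervals therefore do not reflect spread particular to a single locus. The scaling factors of that fit ran from 0.121 (PBS of set 1) to 4.69 (PBS of set 2). A standard error is the fold change over the root of its F statistic. The set term pairs libraries by their label: over loci, the differences between set 1 and set 2 in PBS, 5-Aza-CdR and the Combination correlated at 0.66 to 0.83. Python 3.11.15 with scipy 1.17.1 was used for the rest. Intervals and the floor of 3 counts cover only counting error, since PCR copies carry no molecular identifiers here and are not independent. No hg19 sequence or gene annotation was used here, so neither the sequences of the pairs nor nearby genes were analysed.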

Additional observations from a re-analysis of the deposited data

Results flagged for a closer look

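The log2 ratio of inverted to same-strand reads moved in opposite directions in the 2 sets: 5-Aza-CdR minus PBS was -1.22 in set 1 and 0.16 in set 2, and the Combination minus PBS was -1.19 in set 1 and 0.23 in set 2. With 1 library per treatment in each set, the difference between the sets was not tested, and both comparisons use the same PBS libraries.

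The LTR10C pair on chromosome 19 split the same way when scaled by the library sizes of the sums fit. Its ratio of 5-Aza-CdR over PBS was 0.0989 in set 1 and 1.79 in set 2. The Combination was at least 7.89-fold lower than PBS in set 1 with a ratio of 1.38 in set 2. Scaled to tRNA reads, the counts of set 1 show no decrease of this pair with the Combination. The difference between the sets in this pair was not tested either.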

How the results depend on the processing

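The excess of inverted loci with reads stayed positive in all alternatives run and lost its call in 1 of 14, without loci that have both kinds of neighbour (0.456 percentage points). It ran from 0.409 to 0.629 when single libraries were left out, and it was 0.156 points at a minimum of 3 reads. The log2 ratio of reads per kb kept its sign and call in 12 of 12, with 0.42 to 0.69 when single libraries were left out. The excess of pairs with reads at both loci lost its call without loci that have both kinds of neighbour (1.77 points), without the 5 highest loci of each class (1.89), with gaps of at least 200 bp (1.86), without look-alike pairs (1.85) and without 5 of the 6 libraries left out in turn (1.54 to 2.87; Vc, with 1 library, was kept). The treatment differences in the log2 ratio reversed without PBS of set 1 (0.27 for 5-Aza-CdR, 0.32 for the Combination), and that of the Combination against 5-Aza-CdR without the 5 highest loci (-0.0036), without 5-Aza-CdR of set 2 (-0.0501) and without the Combination of set 1 (-0.03). Left-out libraries gave -1.32 to 0.27, -1.27 to 0.32 and -0.05 to 0.15 for 5-Aza-CdR against PBS, the Combination against PBS and the Combination against 5-Aza-CdR. Loci matched in both sets were all loci, so that alternative is identical by construction.

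Of the 3 loci called lower with 5-Aza-CdR, 1 was called with total reads as scaling, 0 with DESeq2, 0 with at least 10 reads, 0 with no filter, 1 of the 5 left at a gap limit of 500 bp, and 1 of the 4 left without loci that have both kinds of neighbour. Leaving out single libraries moved the count in both comparisons with PBS. Where a treatment then had 1 library, that library was assumed to vary like the others, so these counts are not read. The fit without the replicate block, that is, without the set term, called 0 loci with 5-Aza-CdR and changed no other count; with the set as a block the mean log2 ratios of -0.53, -0.48 and 0.05 stay as they are, and the smallest p is 0.5. For the sums, the default filter of edgeR called 1 lower in each comparison with PBS, and single libraries left out gave 0 to 2 in both. Over the 351 refits of the 9 tested loci, 29 lost and 7 gained a call, and 21 reversed their sign, in each case at values that were not called. With 5-Aza-CdR against PBS the right LTR10C locus (0.15) turned to -0.089 with total reads as scaling, -0.57 with DESeq2, -0.19 with at least 10 reads and -0.016 with no filter, and THE1B-int at chr4:39535122-39536286 (-0.61) to 0.44 with DESeq2. The other reversals came from left-out libraries. For 5-Aza-CdR against PBS the ranges were -3.85 to 0.61 (right LTR10C), -3.71 to 1.03 (left LTR10C), -1.24 to 3.83 (that THE1B-int locus) and -4.30 to 0.052 (MER101-int). For the Combination against PBS they were -7.75 to 0.36 (left LTR10C), -3.05 to 3.22 (THE1B-int), -1.08 to 0.39 (MER101-int) and -3.63 to 0.25 (MLT2B4). For the Combination against 5-Aza-CdR they were -7.07 to 0.54 (left LTR10C), -3.62 to 3.19 (right LTR10C), -0.72 to 3.59 (MER101-int) and -0.15 to 3.08 (PABL_B). The cause of these changes was not tested. Depth limits all of this: only 9 of 13548 inverted loci had the 30 reads needed to enter the locus fit, and 12440 had none.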
